A study of Homo sapiens with 11 samples.

Results

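RKO cells, an established human colorectal carcinoma line, were compared after 24 h in phenylacetaldehyde (PAA) with RKO cells in medium containing 0.1% dimethyl sulfoxide (DMSO), the vehicle. The comparison used 5 of the 11 RNA sequencing libraries of the series, chosen by the line named in their labels: PAA replicates 1, 2 and 3, and DMSO replicates 2 and 3. The other 6 libraries are of HCT-116 cells. No allele or transgene is given for either RKO group, and DMSO is stated for the vehicle group only, so whether PAA cells also received it is not given. The labels state no PAA dose, no time in vehicle and no number of separate cultures, and the spread between libraries, on which every p-value rests, may be technical. Expression is in FPKM, fragments scaled by transcript length and library depth. All 12248 genes that reached 1 FPKM in at least 2 of the 5 libraries were tested, out of 60612 in the table.

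PAA is a reactive aromatic aldehyde that cells can form from phenethylamine and can oxidise with aldehyde dehydrogenases. Cells meet misfolded proteins, lack of amino acids or reactive carbonyls through kinases that phosphorylate the initiation factor eIF2, which favours translation of the transcription factor ATF4. ATF4, with C/EBP partners, raises genes for amino acid uptake, amino acid synthesis and charging of tRNAs, and with CHOP (DDIT3) it can promote cell death. The factor NRF2 raises genes for glutathione, thioredoxin and iron handling after electrophilic stress. E2F factors and the DREAM and MuvB complexes govern genes of DNA replication and mitosis, whose transcripts are low in cells that have left the cycle.

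The label of the line was checked against markers. EPCAM, an epithelial surface protein, was between 4.61 and 6.06 FPKM and KRT18, an epithelial keratin, between 15.8 and 20.8 FPKM, while 14 of 18 colon epithelial markers stayed under 1 FPKM, among them the defining genes CDH1, KRT20 and VIL1. Of immune and blood markers, 13 of 14 stayed under 1 FPKM, CD68 being the exception at between 203 and 248 FPKM, and 12 of 13 stromal, endothelial and muscle markers did so, all but ACTA2. Depth, estimated from the most common low value, was 18560000 to 22440000 fragments per library. Only 16.4 to 17.8% of low values were whole multiples of that step within 0.02, so the depth is uncertain. Pearson correlations of log2(FPKM + 1) across genes ran from 0.9797 to 0.9828 among PAA libraries, were 0.9782 between DMSO libraries and ran from 0.9487 to 0.9543 between the groups, with genes not being independent replicates.

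PAA moved a large share of the RKO transcriptome by small amounts and a small share by large amounts. By limma's moderated test on log2(FPKM + 1) at an adjusted p of 0.05, 5046 genes (41.2%) changed: 3250 (26.5%) were higher and 1796 (14.7%) lower with PAA. Of these, 173 (1.41%) were higher and 111 (0.906%) lower by at least 1 on the log2 scale. The PAA libraries all lay above the DMSO libraries for 5039 genes (41.1%) and below them for 3002 genes (24.5%). These shares are the background for every count below. Counts of 3 or fewer in 1 direction of a list often rested on 1 library: the 3 mitochondrial synthetases called higher became 0 without any 1 of 4 libraries and 1 without PAA replicate 2.

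The balance between rises and falls depended on how the libraries were scaled. Mitochondrially encoded transcripts carried 18.5, 18.2 and 18.5% of all FPKM in the PAA libraries and 33.8 and 34.9% in the DMSO libraries, means of 18.4% ± 0.168 (SD, n = 3) and 34.4% ± 0.785 (SD, n = 2). The difference was -15.98 percentage points, with an exact permutation p of 0.2 (two-sided, the one-sided p being doubled), the smallest that this test allows with the 10 splits of 5 libraries. Total FPKM was 264474, 265118 and 265697 in PAA libraries and 314890 and 332021 in DMSO libraries, and without the mitochondrial genes 215644, 216830 and 216472 in PAA libraries and 208376 and 216017 in DMSO libraries. As deposited, 64.4% of called genes were higher, with a median log2 fold change of 0.0825 over all genes. With every library set to 1 total that included mitochondrial genes, 7002 genes (57.2%) were called. Of these, 6373 (52%) were higher and 629 (5.14%) lower, 91% of calls were higher and the median was 0.315, while 447 (3.65%) rose and 57 (0.465%) fell by at least 1 on the log2 scale. With mitochondrial genes left out of that total, 4671 genes (38.1%) were called. Of these, 2840 (23.2%) were higher and 1831 (14.9%) lower, 60.8% of calls were higher and the median was 0.0603, while 155 (1.27%) rose and 125 (1.02%) fell by at least 1. A fold change under the total with mitochondrial genes is therefore read against 0.315, and the plot of list medians shows each gene list under the 3 scalings.

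**Figure D1:**
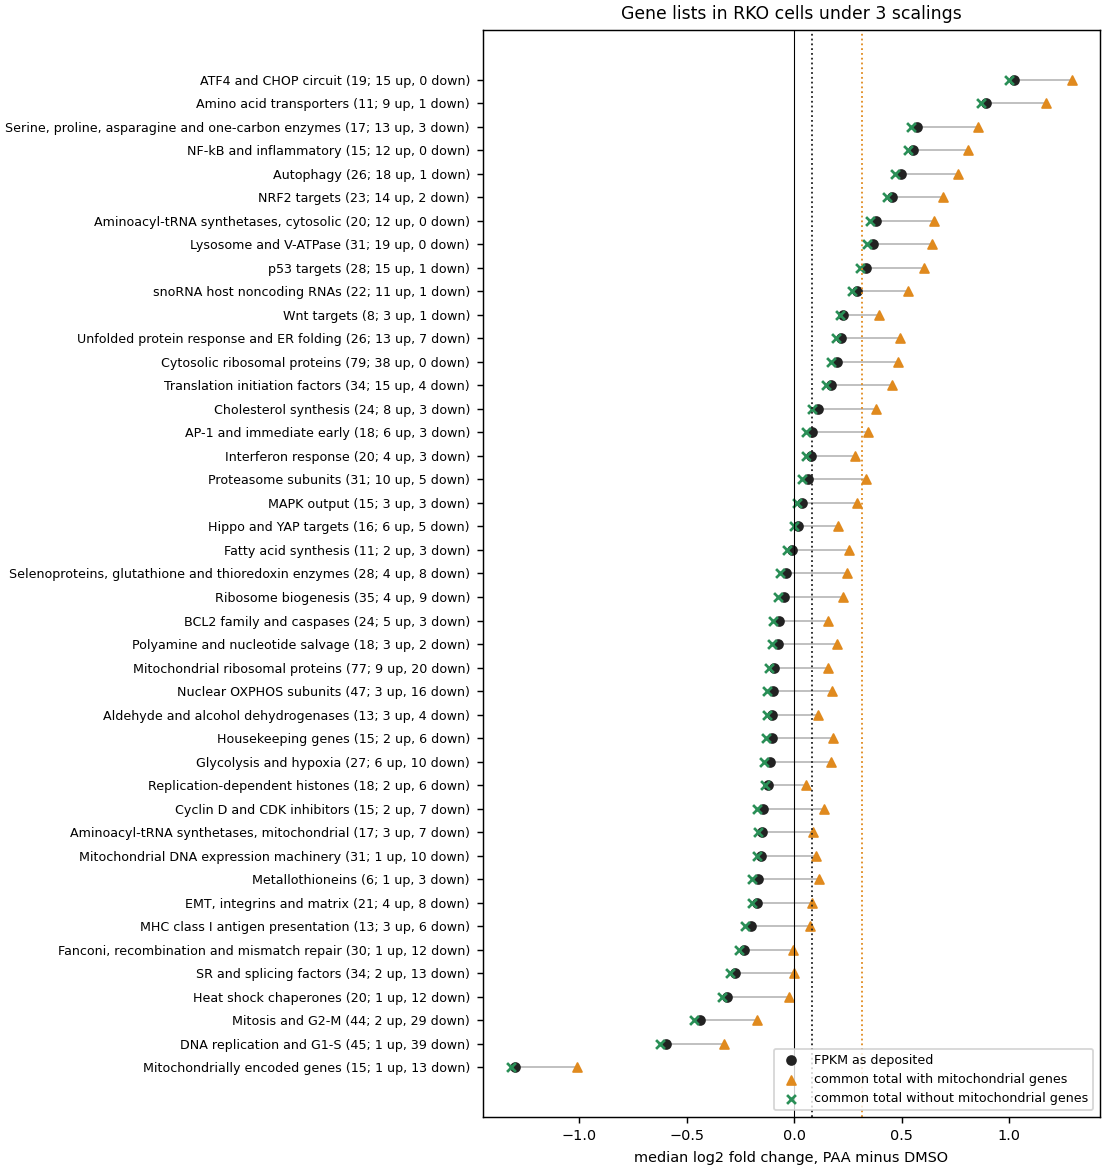
Median log2 fold change (PAA minus DMSO, x axis) of each gene list (y axis, with the number tested and the members called higher and lower with FPKM as deposited). Circles are FPKM as deposited, triangles the common total with mitochondrial genes and crosses the total without them; dotted lines mark the median of all genes as deposited (0.0825) and with mitochondrial genes (0.315). The ATF4 and amino acid lists lie at the top and the replication, mitosis and mitochondrially encoded lists at the bottom under all 3.

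The ATF4 and CHOP circuit had the highest median of the 43 lists plotted. Of 19 members tested, 15 were higher and 0 lower with PAA, with a median log2 fold change of 1.02 against 0.0825 for all genes. The median was 1.29 with the mitochondrial total and 0.997 without it. The factor ATF4 itself had 91.5, 109.6 and 88.3 FPKM in PAA libraries, against 22.3 and 27.4 in DMSO libraries, a log2 fold change of 1.92 ± 0.13 (SE; adjusted p = 0.00127). DDIT3, which encodes the pro-apoptotic factor CHOP, had 47.9, 46.5 and 39.6 FPKM with PAA and 12.3 and 12.9 with DMSO (1.74 ± 0.093). In both genes every PAA library was above both DMSO libraries. The partner factors rose as well: CEBPB had 169, 183 and 159.8 FPKM with PAA, against 31.2 and 32.7 with DMSO (2.38 ± 0.069), and CEBPG rose by 1.02 ± 0.05. ATF3, another stress-induced factor of the family, rose by 1.69 ± 0.20, with 5.44, 3.23 and 5.12 FPKM in PAA libraries and 0.731 and 0.68 in DMSO libraries.

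Several targets and feedback genes of the circuit rose further still. CHAC1, which degrades glutathione, had 18, 17.4 and 16 FPKM in PAA libraries and 0.974 and 0.717 in DMSO libraries, a log2 fold change of 3.30 ± 0.087. TRIB3, a pseudokinase that restrains ATF4 and AKT, had 98.6, 103 and 95.4 FPKM with PAA and 12.9 and 12.4 with DMSO (2.87 ± 0.049). SESN2 and DDIT4, which both dampen mTORC1, rose by 2.69 ± 0.058 and 2.68 ± 0.087. None of these 4 genes had overlapping groups. PPP1R15A, a regulatory subunit of the phosphatase that dephosphorylates eIF2, rose by 1.55 ± 0.035. It had 245, 253 and 252 FPKM under PAA and 85.5 and 83.5 under DMSO. Its constitutive relative PPP1R15B had 17.7, 17.2 and 17.2 FPKM under PAA and 17.5 and 17 under DMSO and did not pass (adjusted p = 0.846).

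The eIF2 kinases named here did not share this pattern. EIF2AK3 (PERK, the kinase of the endoplasmic reticulum) rose by 0.42 ± 0.071, with 3.62, 4.16 and 3.63 FPKM in PAA libraries and 2.53 and 2.62 in DMSO libraries, but the call was lost without DMSO replicate 2 and the sum of its transcripts gave -0.60. EIF2AK4 (GCN2, which senses uncharged tRNA) had 8.39, 9.34 and 8.85 FPKM with PAA and 8.81 and 8.58 with DMSO, and the groups overlapped (adjusted p = 0.776). EIF2AK1 (HRI, the haem-regulated kinase) had 18.9, 15.6 and 20.6 FPKM with PAA, below 25.9 and 23.3 with DMSO, at an adjusted p of 0.0578. GDF15, a secreted stress hormone often high after ATF4 activity, had 13.7, 12.1 and 11.9 FPKM with PAA and 10.5 and 9.5 with DMSO. Its rise of 0.30 ± 0.08 lost its call when any 1 library was left out.

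Amino acid transporters and enzymes rose in the majority. Of 11 amino acid transporters tested, 9 were higher and 1 lower (median 0.894). SLC7A11, the cystine importer that feeds glutathione synthesis, is a target of both ATF4 and NRF2. On the log2(FPKM + 1) scale it showed the largest rise of any named gene. It had 34.5, 34.7 and 34.7 FPKM in PAA libraries and 2.24 and 1.93 in DMSO libraries. That was a 16.7-fold ratio of means and a log2 fold change of 3.54 ± 0.057. SLC7A5, the importer of large neutral amino acids such as phenylalanine, had 238, 247 and 233 FPKM with PAA and 80.2 and 80.4 with DMSO (1.56 ± 0.039), and its heavy chain SLC3A2 rose by 1.33 ± 0.084. The glycine transporter SLC6A9 rose, with 3.96, 3.5 and 3.54 FPKM under PAA and 0.24 and 0.256 under DMSO (adjusted p = 0.000437). SLC38A2, the adaptive small neutral amino acid transporter, was the 1 that fell (-0.34 ± 0.038), and with the mitochondrial total its log2 fold change was -0.06.

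Of 17 enzymes of serine, proline, asparagine and folate metabolism, 13 were higher and 3 lower (median 0.57; 1 lower without DMSO replicate 2). ASNS, asparagine synthetase, had 63.2, 58.8 and 68.5 FPKM in PAA libraries and 8.45 and 6.95 in DMSO libraries (2.89 ± 0.10), and CTH, which makes cysteine from cystathionine, had 10.2, 11.6 and 10.5 FPKM with PAA and 1.23 and 1.44 with DMSO (2.33 ± 0.079). The serine pathway enzymes PSAT1, PHGDH and PSPH rose by 1.55 ± 0.061, 1.06 ± 0.059 and 0.95 ± 0.063. Among folate enzymes, mitochondrial MTHFD2 rose by 0.99 ± 0.071 and SHMT2 by 0.57 ± 0.033, while cytosolic MTHFD1 fell, with 9.98, 9.74 and 9.7 FPKM under PAA and 17.3 and 17.1 under DMSO (-0.75 ± 0.04). SHMT1, the cytosolic serine hydroxymethyltransferase, was at -0.23 ± 0.048 as deposited, a call lost without either DMSO library, and at 0.014 with the mitochondrial total.

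All 20 cytosolic aminoacyl-tRNA synthetases, which charge tRNAs, were tested, and 12 were higher and 0 lower (median 0.379, and 0.352 without mitochondrial genes in the total). SARS1 had 94.1, 91.4 and 94.7 FPKM in PAA libraries and 34 and 35.5 in DMSO libraries (1.40 ± 0.041), CARS1 rose by 1.38 ± 0.041 and AARS1 by 1.15 ± 0.047. The 8 without a call included FARSA, a subunit of the phenylalanine enzyme, with 50.5, 52.4 and 55.5 FPKM under PAA and 57.8 and 52.8 under DMSO, and HARS1, with 8.21, 7.13 and 8.08 under PAA and 7.9 and 7.68 under DMSO. Of 17 mitochondrial synthetases, 3 were higher and 7 lower (median -0.152, but 0.0893 with the mitochondrial total, where 7 were higher and 3 lower). The 7 lower calls were 4 without DMSO replicate 3, 3 without DMSO replicate 2 and 4 without PAA replicate 1.

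**Figure D2:**
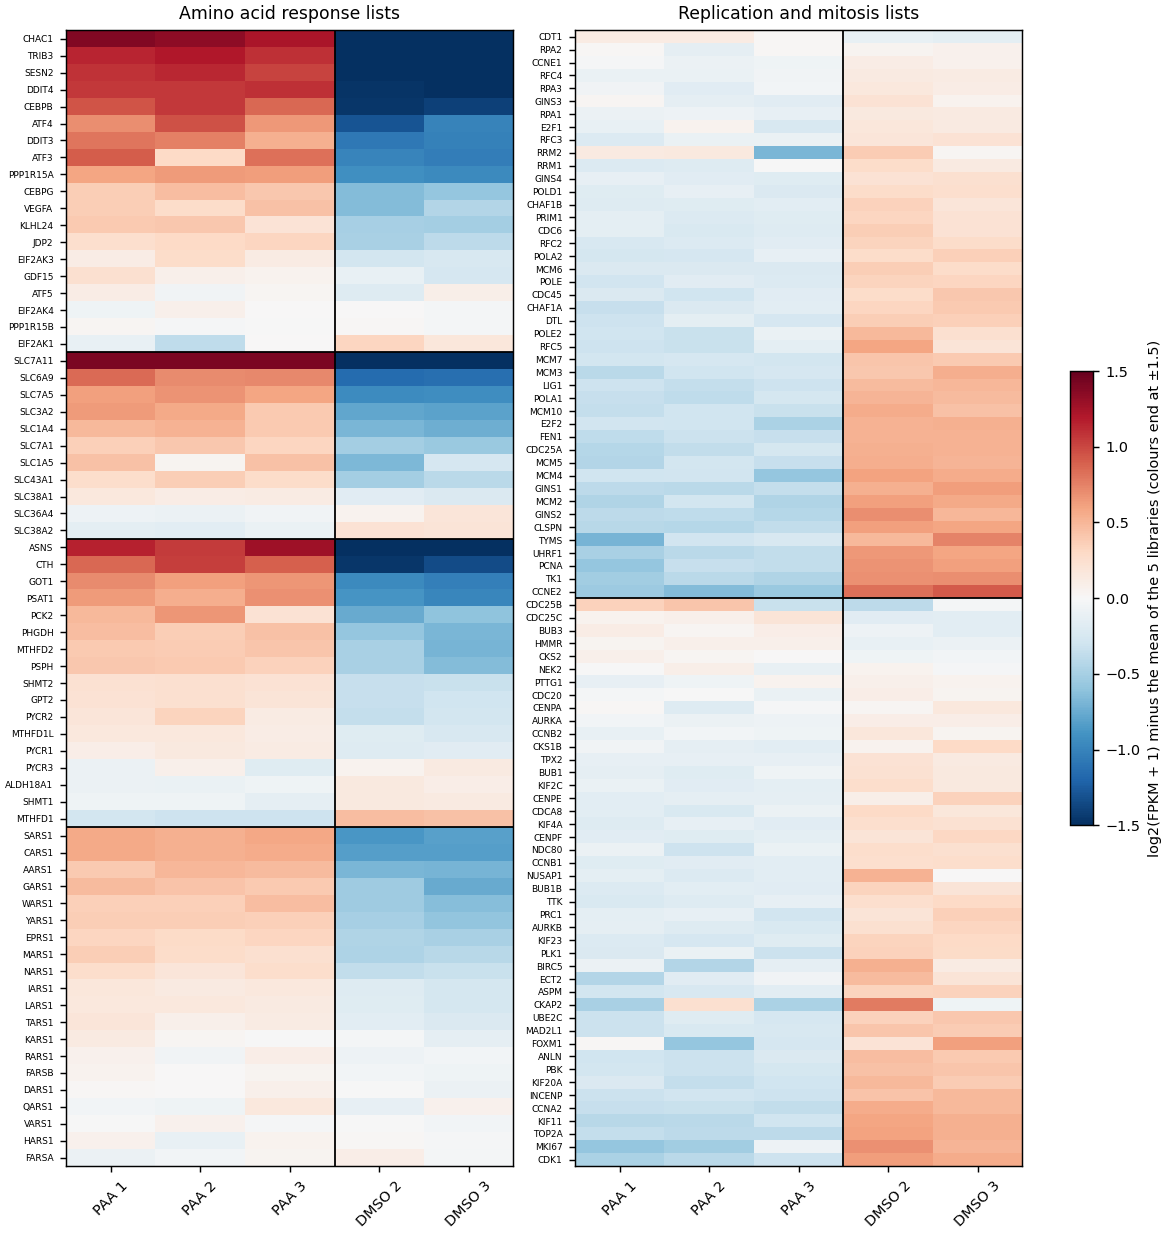
Each row is a tested gene, 1 replication gene not being shown, and each column a library; colour is log2(FPKM + 1) minus the mean of the 5 libraries. Left, from top to bottom, are the ATF4 and CHOP circuit, amino acid transporters, serine, proline, asparagine and folate enzymes, and cytosolic aminoacyl-tRNA synthetases; right are the DNA replication and the mitosis lists. PAA libraries are high for most rows on the left and low for most rows on the right.

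Promoters of genes in these lists were read for the C/EBP-ATF element, TGATGNAA on either strand, at which ATF4 and C/EBP proteins can pair. RefSeq promoters (GRCh38.p14, 250 bases before to 50 after the start, 300 in all) were matched by symbol for 8698 of the tested genes. The element was present in 131 (1.51%) of these and in 3.67% of all 27305 promoters. It was present in 6 of 16 cytosolic aminoacyl-tRNA synthetase promoters (37.5%), 3 of 17 of the ATF4 and CHOP circuit (17.6%), 3 of 10 amino acid transporters (30%) and 3 of 11 serine, proline, asparagine and folate enzymes (27.3%). All 6 synthetase matches had C at the free base, TGATGCAA, which 0.923% of all promoters hold. The 4 promoters shown were picked from called members of these lists that hold the element, and their genes rose by at least 1 on the log2 scale. Capitals mark the element, as read on the gene's strand or its complement. They lie at chr15:40953221-40953520 (+ strand), chr7:97872359-97872658 (- strand), chr10:99430575-99430874 (- strand) and chr11:3057374-3057673 (- strand), with the match beginning at base -209, -68, -198 and -2 from the start. Among them GOT1, the cytosolic aspartate aminotransferase, rose by 1.65 ± 0.051. The lists follow the known ATF4 response and were chosen with earlier results known, so these shares describe the lists. Among genes called higher by at least 1 on the log2 scale, 10 of 112 promoters (8.93%) held the element. Among those called lower by at least 1, 2 of 52 (3.85%) did. The 10 include the 4 promoters shown, which are of list members, so their share is not independent of the lists. A match is a description of these letters and not a bound site.
CHAC1: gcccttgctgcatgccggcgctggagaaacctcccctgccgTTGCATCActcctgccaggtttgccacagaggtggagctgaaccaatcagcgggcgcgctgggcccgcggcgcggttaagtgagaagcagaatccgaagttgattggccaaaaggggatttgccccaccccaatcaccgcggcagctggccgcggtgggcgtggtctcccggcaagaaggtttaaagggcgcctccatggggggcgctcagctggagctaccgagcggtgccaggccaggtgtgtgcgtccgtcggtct
ASNS: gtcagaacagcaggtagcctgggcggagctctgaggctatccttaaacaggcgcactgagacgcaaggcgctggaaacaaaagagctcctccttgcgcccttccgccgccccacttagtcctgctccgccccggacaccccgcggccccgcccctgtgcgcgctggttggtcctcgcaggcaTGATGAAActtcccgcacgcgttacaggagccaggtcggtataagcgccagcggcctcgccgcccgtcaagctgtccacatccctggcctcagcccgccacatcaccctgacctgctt
GOT1: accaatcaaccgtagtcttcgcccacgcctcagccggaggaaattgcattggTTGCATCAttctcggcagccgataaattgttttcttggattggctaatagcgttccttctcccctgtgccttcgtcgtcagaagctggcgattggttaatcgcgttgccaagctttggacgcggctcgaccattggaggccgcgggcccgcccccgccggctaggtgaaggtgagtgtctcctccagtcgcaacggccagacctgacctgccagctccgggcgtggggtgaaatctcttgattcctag
CARS1: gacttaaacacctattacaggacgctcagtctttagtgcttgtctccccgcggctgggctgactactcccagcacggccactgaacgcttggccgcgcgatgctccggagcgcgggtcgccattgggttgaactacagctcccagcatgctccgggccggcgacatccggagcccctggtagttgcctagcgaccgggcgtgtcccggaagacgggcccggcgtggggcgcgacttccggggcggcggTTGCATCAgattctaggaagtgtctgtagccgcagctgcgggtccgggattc

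Protein folding genes of the endoplasmic reticulum moved both ways. In the unfolded protein response and folding list, 13 of 26 were higher and 7 lower (median 0.219; 16 higher and 2 lower with the mitochondrial total); the 7 were 4 without DMSO replicate 2 and 4 without DMSO replicate 3. XBP1, the factor spliced by the sensor IRE1, had 45.2, 41.4 and 38.9 FPKM in PAA libraries and 15.8 and 14.8 in DMSO libraries (1.39 ± 0.076), and ERN1, which encodes IRE1, rose by 0.83 ± 0.056. The co-chaperone DNAJB9 and the degradation factor HERPUD1 rose by 1.06 ± 0.075 and 1.04 ± 0.15. HSPA5 (BiP), the main chaperone of the compartment, rose by 0.43 ± 0.032, with 443, 442 and 445 FPKM under PAA and 332 and 324 under DMSO. The lectin chaperone CALR fell, with 218, 216 and 198 FPKM under PAA and 423 and 409 under DMSO (-0.98 ± 0.056), and so did CRELD2 (-0.68 ± 0.074).

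Heat shock chaperones were lower as deposited. Of 20 tested, 12 fell and 1 rose (median -0.311). With the mitochondrial total 6 were higher and 4 lower (median -0.0268). HSP90AA1, the inducible HSP90, had 261, 239 and 269 FPKM in PAA libraries and 402 and 397 in DMSO libraries (-0.64 ± 0.06). Inducible HSP70 genes HSPA1A and HSPA1B fell by 0.31 ± 0.042 and 0.31 ± 0.037 on the log2 scale; they are near-identical copies whose reads may be split. The mitochondrial chaperone HSPE1 had 66.1, 58 and 64.9 FPKM with PAA and 121 and 202 with DMSO (-1.30 ± 0.22), whereas HSPA9, the mitochondrial HSP70, rose by 0.48 ± 0.08, a call that was lost without DMSO replicate 3.

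Changes in the translation apparatus were small. Of 79 cytosolic ribosomal protein genes, 38 were higher and 0 lower (median 0.198; 22 higher without DMSO replicate 3), and under median-of-ratios scaling 25 were higher and 2 lower. RPL12 rose by 0.59 ± 0.049, with 586, 549 and 599 FPKM under PAA and 386 and 382 under DMSO. Of 34 initiation factors, 15 were higher and 4 lower (median 0.173; 27 and 1 with the mitochondrial total). EIF4EBP1, the mTORC1-controlled brake on cap binding and an ATF4 target, had 128, 125 and 127 FPKM with PAA and 77.3 and 71.5 with DMSO (0.76 ± 0.047), EIF1 rose by 1.28 ± 0.076 and the scaffold EIF4G1 fell by 0.44 ± 0.039. Among 22 nuclear noncoding RNAs, most of them hosts of small nucleolar RNAs but including NEAT1, MALAT1 and TUG1, 11 were higher and 1 lower (median 0.292). GAS5 had 49.7, 48 and 49.1 FPKM with PAA, against 25 and 24.5 with DMSO (0.96 ± 0.038). Of 98 snoRNAs and scaRNAs tested, 2 were higher and 25 lower (median -0.393, and -0.256 with the mitochondrial total).

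NRF2 targets were higher in the majority. Of 23 tested, 14 were higher and 2 lower (median 0.456, 0.694 with and 0.433 without mitochondrial genes in the total). HMOX1, haem oxygenase, had 145, 151 and 145 FPKM in PAA libraries and 39.5 and 37.3 in DMSO libraries (1.91 ± 0.045). OSGIN1, an oxidative stress growth inhibitor, rose by 1.84 ± 0.063, with 12.1, 12.7 and 11.3 FPKM under PAA and 2.54 and 2.71 under DMSO. TXNRD1, thioredoxin reductase, had 153, 223 and 223 FPKM with PAA and 76.5 and 43.3 with DMSO (1.75 ± 0.30). The PAA libraries lay above the DMSO libraries in all 3 genes, with TXNRD1 uneven among replicates. GCLM, the modifier subunit for glutathione synthesis, rose by 1.06 ± 0.042 and its catalytic partner GCLC by 0.46 ± 0.067. The ferritin chains FTH1 and FTL, which store iron, rose by 1.14 ± 0.061 and 0.57 ± 0.047. NQO1, a quinone reductase often used as the marker of NRF2, rose by 0.80 ± 0.16, a call lost without DMSO replicate 3.

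Not every gene of redox defence rose. The 2 lower NRF2 targets were CBR1, a carbonyl reductase, and PRDX1, a peroxiredoxin, at -0.15 ± 0.041 and -0.19 ± 0.036 as deposited and at 0.12 and 0.096 with the mitochondrial total, and the 2 became 0 without PAA replicate 1 or DMSO replicate 2 and 1 without PAA replicate 3 or DMSO replicate 3. NFE2L2, which encodes NRF2, had 12.3, 11.6 and 9.27 FPKM with PAA and 3.4 and 8.9 with DMSO, without overlap but at an adjusted p of 0.123. In the wider list of selenoproteins, glutathione and thioredoxin enzymes, 4 of 28 were higher and 8 lower (median -0.0376), and with the mitochondrial total 14 were higher and 3 lower (median 0.246). As deposited the 8 were 4 without PAA replicate 3 and 5 without PAA replicate 2 or without DMSO replicate 3, and the 4 were 2 without PAA replicate 2 or DMSO replicate 2. PRDX2 fell by 0.58 ± 0.043 and the mitochondrial PRDX3 by 0.58 ± 0.05, while GSTO1 rose by 0.60 ± 0.039.

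Enzymes that act on aldehydes and alcohols moved both ways. Of 13 aldehyde and alcohol dehydrogenases and reductases tested, 3 were higher and 4 lower (median -0.102; 4 each way with the mitochondrial total, median 0.111; 1 higher without DMSO replicate 2). ALDH2, the mitochondrial enzyme of acetaldehyde, had 11.1, 11.6 and 11.3 FPKM in PAA libraries and 8.88 and 8.7 in DMSO libraries (0.33 ± 0.042). ALDH1B1, its closest mitochondrial relative, moved the other way, with 20.7, 21.1 and 21.7 FPKM under PAA and 37.3 and 35.7 under DMSO (-0.76 ± 0.044). ALDH7A1 fell by 0.55 ± 0.056. ALDH3A2, the fatty aldehyde enzyme, had 1.26, 1.37 and 1.81 FPKM with PAA and 1.81 and 1.35 with DMSO, with overlap. The other 7 of the 20 listed did not reach the expression filter.

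In the metallothionein list, whose proteins bind zinc and copper, 3 of 6 genes were lower and 1 higher (median -0.17, but 0.116 with the mitochondrial total, where 2 were lower and 3 higher, and 0.113 after quantile normalisation). The 1 that rose was the zinc exporter SLC30A1 (0.58 ± 0.064). MT1M had 16.4, 19.6 and 17.3 FPKM with PAA and 53.2 and 54.6 with DMSO (-1.55 ± 0.081) and MT1X fell by 0.62 ± 0.035. The abundant MT2A was at -0.38 ± 0.045 as deposited, -0.096 with the mitochondrial total and 0.1762 after quantile normalisation. SAT1, spermidine acetyltransferase, had 54.5, 51.7 and 55.2 FPKM in PAA libraries and 13.7 and 12.7 in DMSO libraries (1.95 ± 0.054) and the oxidase SMOX rose by 1.13 ± 0.18, a call lost without DMSO replicate 2. With UPP1, uridine phosphorylase (1.24 ± 0.042), these were the 3 higher of 18 polyamine and nucleotide salvage genes (median -0.0754), and with the mitochondrial total 9 were higher and 0 lower (median 0.2). The 2 lower, AMD1 and ODC1, became 0 without PAA replicate 3 or DMSO replicate 2 and 1 without any other library.

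Autophagy and lysosome genes were higher in the majority. Of 26 autophagy genes, 18 were higher and 1 lower (median 0.495), and of 31 lysosomal and V-ATPase genes 19 were higher and 0 lower (median 0.367). WIPI1, which binds nascent autophagosomes, had 9.97, 10.4 and 10.3 FPKM in PAA libraries and 3.21 and 3.51 in DMSO libraries (1.36 ± 0.052). The cargo receptor SQSTM1 (p62), also an NRF2 target, had 115, 119.6 and 113 FPKM with PAA and 56.5 and 56.7 with DMSO (1.02 ± 0.041), and GABARAPL2 rose by 1.22 ± 0.12. In the lysosome the cholesterol exporter NPC1 rose by 1.18 ± 0.057, the calcium channel MCOLN1 by 0.82 ± 0.047 and the saposin precursor PSAP by 0.81 ± 0.032. The exception was MAP1LC3C, an LC3 paralogue, with 4.62, 5.13 and 4.98 FPKM in PAA libraries and 109 and 106 in DMSO libraries (-4.20 ± 0.054). On the log2(FPKM + 1) scale this was the second largest fall of any named gene. Its relative MAP1LC3B rose by 0.87 ± 0.23, a call lost without PAA replicate 3 or either DMSO library.

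Among 28 p53 targets, 15 were higher and 1 lower (median 0.335; 0 lower without PAA replicate 2 or 3), and the list shares SESN2 with the ATF4 list. BBC3 (PUMA), a killer BH3 protein, had 13, 14.5 and 12.1 FPKM with PAA and 4.26 and 4.56 with DMSO (1.39 ± 0.084), and GADD45A rose by 1.37 ± 0.16. TNFRSF10B, the death receptor DR5 and a target of CHOP as well, had 48.4, 50.9 and 48.4 FPKM with PAA and 31.1 and 32.4 with DMSO (0.62 ± 0.044). CDKN1A (p21), the CDK inhibitor, had 60.6, 86.8 and 57.8 FPKM with PAA and 40.3 and 44 with DMSO (0.66 ± 0.19), and MDM2, the ligase that degrades p53, rose by 0.33 ± 0.096. Both calls were lost without PAA replicate 1 or 3 or without either DMSO library. In the BCL2 and caspase list 5 of 24 were higher and 3 lower (median -0.0732; 7 higher and 1 lower with the mitochondrial total, median 0.159; 3 higher without PAA replicate 2 and 5 lower without PAA replicate 3). The survival protein MCL1 fell, with 135, 138 and 138 FPKM under PAA and 202 and 196 under DMSO (-0.54 ± 0.035).

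NF-kB and inflammatory genes were also mostly higher. Of 15 tested, 12 were higher and 0 lower (median 0.554; 0.806 with and 0.529 without mitochondrial genes in the total). CXCL8 (interleukin-8) had 3.52, 3.33 and 4 FPKM in PAA libraries and 0.681 and 0.736 in DMSO libraries (1.43 ± 0.083). RELB, a subunit of the alternative pathway, had 16.5, 17.2 and 16.8 FPKM with PAA and 6.56 and 5.53 with DMSO (1.34 ± 0.075), and the inhibitor NFKBIA rose by 0.81 ± 0.12. Immediate early genes were mixed, with 6 of 18 higher and 3 lower (median 0.0819 against 0.0825 for all genes, and -0.0131 under median-of-ratios scaling; 11 higher and 1 lower with the mitochondrial total). JUND rose by 0.99 ± 0.068 and JUN fell by 0.43 ± 0.031. Interferon genes were also mixed, with 4 of 20 higher and 3 lower (12 and 3 with the mitochondrial total); ISG15 fell by 0.69 ± 0.067 and OAS3 by 0.71 ± 0.046, and the 4 were 1 without either DMSO library or PAA replicate 3 and 2 without PAA replicate 2.

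Genes of DNA replication were lower almost throughout. Of 45 tested, 39 fell and 1 rose (median -0.598, -0.329 with and -0.625 without mitochondrial genes in the total), against 14.7% of all genes lower. CCNE2, a cyclin of S phase entry, had 4.35, 3.98 and 4.32 FPKM in PAA libraries and 12.8 and 13.7 in DMSO libraries (-1.45 ± 0.059). PCNA, the sliding clamp of the replication fork, had 77.3, 91.1 and 89.3 FPKM with PAA and 184 and 178 with DMSO (-1.07 ± 0.083). TK1, thymidine kinase, had 13.8, 15.1 and 14.5 FPKM with PAA and 33.2 and 33.3 with DMSO (-1.15 ± 0.05). Groups did not overlap in these 3 genes. The helicase subunits MCM2 to MCM7 all fell, by 0.98 ± 0.073 (MCM2, the most) to 0.54 ± 0.046 (MCM6, the least). TYMS, which makes thymidylate, fell by 1.03 ± 0.17, a call lost without DMSO replicate 3.

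A few replication genes stood apart. CDT1, the licensing factor that is degraded in S phase, was the 1 that rose (0.21 ± 0.052), a call that was lost without PAA replicate 1 or 2 or either DMSO library. E2F1 had 19.7, 22.1 and 17.9 FPKM in PAA libraries and 24.1 and 23.4 in DMSO libraries (adjusted p = 0.0889) and CCNE1 had 13.7, 13 and 13.3 with PAA and 15.1 and 14.6 with DMSO (adjusted p = 0.0574). Both lay below the DMSO libraries without passing. E2F2 passed, with 2.97, 2.94 and 2.49 FPKM under PAA and 5.9 and 5.97 under DMSO (-0.87 ± 0.076). RRM2, the ribonucleotide reductase subunit, overlapped between groups, with 23.7, 24 and 13 FPKM under PAA and 28.4 and 22 under DMSO.

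Mitosis genes were lower in the majority as deposited. Of 44 tested, 29 were lower and 2 higher (median -0.439), and with the mitochondrial total 15 were lower and 4 higher (median -0.174, below 0.315). CDK1, the mitotic kinase, had 8.18, 8.61 and 9.24 FPKM in PAA libraries and 18.7 and 17.7 in DMSO libraries (-0.99 ± 0.064). TOP2A, which untangles DNA, had 12.8, 12.4 and 12.4 FPKM with PAA and 25.8 and 24.6 with DMSO (-0.95 ± 0.043), and the proliferation marker MKI67 fell by 0.99 ± 0.17, a call lost without DMSO replicate 2. The cyclins CCNA2 and CCNB1 fell by 0.87 ± 0.041 and 0.42 ± 0.034. CDC25C and BUB3 were the 2 higher, by 0.28 ± 0.064 and 0.19 ± 0.049, and both calls were lost without either DMSO library.

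Related lists held more lower than higher genes as deposited. In Fanconi, recombination and mismatch repair, 12 of 30 were lower and 1 higher (median -0.235; 0 higher without DMSO replicate 3), and with the mitochondrial total 9 were lower and 5 higher (median -0.00446). EXO1, a repair exonuclease, had 7.39, 7.16 and 6.83 FPKM in PAA libraries and 16.7 and 17.6 in DMSO libraries (-1.16 ± 0.052). Among cyclin D genes, CDK inhibitors and pocket proteins, 7 of 15 were lower and 2 higher (median -0.146), and with the mitochondrial total 4 were lower and 5 higher (median 0.136). The 2 higher became 0 without PAA replicate 1 or either DMSO library or under median-of-ratios or quantile scaling, and 1 without PAA replicate 3. CCND1 had 24.5, 20.8 and 24.5 FPKM with PAA and 36.2 and 40.9 with DMSO (-0.71 ± 0.098) and CDK2 fell by 0.67 ± 0.054. Replication-dependent histones, counted poorly where libraries select poly(A), were lower in 6 and higher in 2 of 18 (median -0.121), and with the mitochondrial total in 4 and 3 (median 0.055). The 2 higher became 0 without DMSO replicate 2 and 1 without PAA replicate 1 or 2 or DMSO replicate 3. H2AC20 had 0.833, 1.45 and 0.62 FPKM under PAA and 3.48 and 4.47 under DMSO (-1.35 ± 0.21), and the linker histone H1-2 fell by 1.21 ± 0.043. MYC overlapped between the groups, with 73.8, 8.24 and 10.6 FPKM in PAA libraries and 7.77 and 42 in DMSO libraries.

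Promoters of the replication and mitosis lists were read for the E2F element (TTTCCCGC or TTTGGCGC) and for the cell cycle homology region (CHR, TTTGAA), each on either strand; no motif used here contains another except TGATGCAA within TGATGNAA. The E2F element was in 21 of 38 replication promoters (55.3%), 2 of 36 mitosis promoters (5.56%), 4.12% of promoters of tested genes and 2.31% of all promoters. The CHR was in 24 of 36 mitosis promoters (66.7%), 1 of 38 replication promoters (2.63%), 9.22% of promoters of tested genes and 15.4% of all promoters. The lists were built from genes known to be regulated in the cycle, so these shares describe the lists. Shown are PCNA and UHRF1 with the E2F element, and CDK1 and TOP2A with the CHR, each in capitals, at chr20:5126573-5126872 (- strand), chr19:4909251-4909550 (+ strand), chr10:60778081-60778380 (+ strand) and chr17:40417847-40418146 (- strand). The matches begin at base -59, -14 and -161 from the start, and at -194 and -151 in TOP2A. UHRF1, which carries DNA methylation through replication, fell by 1.04 ± 0.054.
PCNA: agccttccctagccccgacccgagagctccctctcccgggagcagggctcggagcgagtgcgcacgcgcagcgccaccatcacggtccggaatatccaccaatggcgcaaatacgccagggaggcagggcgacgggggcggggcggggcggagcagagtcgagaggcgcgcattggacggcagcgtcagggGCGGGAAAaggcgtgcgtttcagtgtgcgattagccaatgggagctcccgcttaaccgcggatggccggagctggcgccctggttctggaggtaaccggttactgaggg
UHRF1: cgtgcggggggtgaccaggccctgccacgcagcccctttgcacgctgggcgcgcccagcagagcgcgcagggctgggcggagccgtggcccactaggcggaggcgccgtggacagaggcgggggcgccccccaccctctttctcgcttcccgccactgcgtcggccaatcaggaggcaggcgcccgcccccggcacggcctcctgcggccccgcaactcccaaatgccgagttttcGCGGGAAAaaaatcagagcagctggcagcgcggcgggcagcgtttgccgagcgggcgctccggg
CDK1: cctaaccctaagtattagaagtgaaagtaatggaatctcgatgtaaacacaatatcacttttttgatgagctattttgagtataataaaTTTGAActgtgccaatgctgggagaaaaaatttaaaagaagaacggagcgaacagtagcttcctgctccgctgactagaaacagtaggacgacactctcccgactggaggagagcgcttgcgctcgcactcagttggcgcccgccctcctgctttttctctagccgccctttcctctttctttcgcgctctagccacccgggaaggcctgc
TOP2A: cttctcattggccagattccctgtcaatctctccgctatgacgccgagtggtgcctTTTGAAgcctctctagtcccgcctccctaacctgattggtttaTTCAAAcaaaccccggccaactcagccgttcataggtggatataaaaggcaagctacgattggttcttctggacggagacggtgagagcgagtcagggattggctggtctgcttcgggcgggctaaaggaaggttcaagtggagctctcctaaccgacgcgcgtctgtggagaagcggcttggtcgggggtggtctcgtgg

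Mitochondrially encoded messages fell in RKO cells with PAA while neither mitochondrial rRNA fell. All 13 protein-coding genes of the mitochondrial genome were lower (median -1.30; -1.01 with and -1.33 without mitochondrial genes in the total). After quantile normalisation 9 of the 13 were lower, MT-ND1 was at 0.02977, MT-ND4, MT-ATP6 and MT-ATP8 were at 0, and the median over the coding and rRNA genes was -0.314 in place of -1.3. The smallest fall was that of MT-ND1, the first coding gene after the rRNAs, with 1717, 1717 and 1661 FPKM in PAA libraries and 2821 and 2954 in DMSO libraries (-0.77 ± 0.038). The steepest were MT-ND5 and MT-ND6, which lie next to each other on opposite strands. The deposited values do not give the strand of the reads, so a fall cannot be assigned to a strand. MT-ND5 had 767, 766 and 752 FPKM with PAA and 2998 and 3134 with DMSO (-2.01 ± 0.035), and MT-ND6 had 979.8, 957 and 935 with PAA and 3693 and 4033 with DMSO (-2.01 ± 0.051). The other 10 fell by between 1.18 ± 0.06 (MT-ND4) and 1.66 ± 0.064 (MT-ND3). Subunits of all 4 complexes with mitochondrially encoded parts were among them, such as MT-CO1 (-1.30 ± 0.041), MT-CYB (-1.39 ± 0.04) and MT-ATP6 (-1.26 ± 0.04).

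In contrast, MT-RNR2, the large rRNA, had 2767, 2693 and 2839 FPKM in PAA libraries and 1435 and 1648 in DMSO libraries (0.85 ± 0.068; adjusted p = 0.00169). MT-RNR1, the small rRNA, had 675, 659 and 713 with PAA and 349 and 585 with DMSO, without overlap but uneven between the DMSO libraries (adjusted p = 0.0916; 0.0141 with the mitochondrial total). Of 21 mitochondrial tRNA genes tested, 16 were lower and 0 higher as deposited. RNA selection is not given, so whether these values stand for mature tRNA is not known. MT-TL1, which lies between MT-RNR2 and MT-ND1, had 233, 244 and 232 FPKM with PAA and 241 and 260.4 with DMSO, whereas MT-TE, on the light strand beside MT-ND6, fell by 1.85 ± 0.076. The rise of MT-RNR2 and the falls lie within the same libraries, so no common factor per library removes the difference between them. Nuclear copies of mitochondrial sequence can share these reads: MTND4P12, a pseudogene on chromosome 5, had 1.48, 2.01 and 1.59 FPKM under PAA and 8.21 and 13.3 under DMSO.

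**Figure D3:**
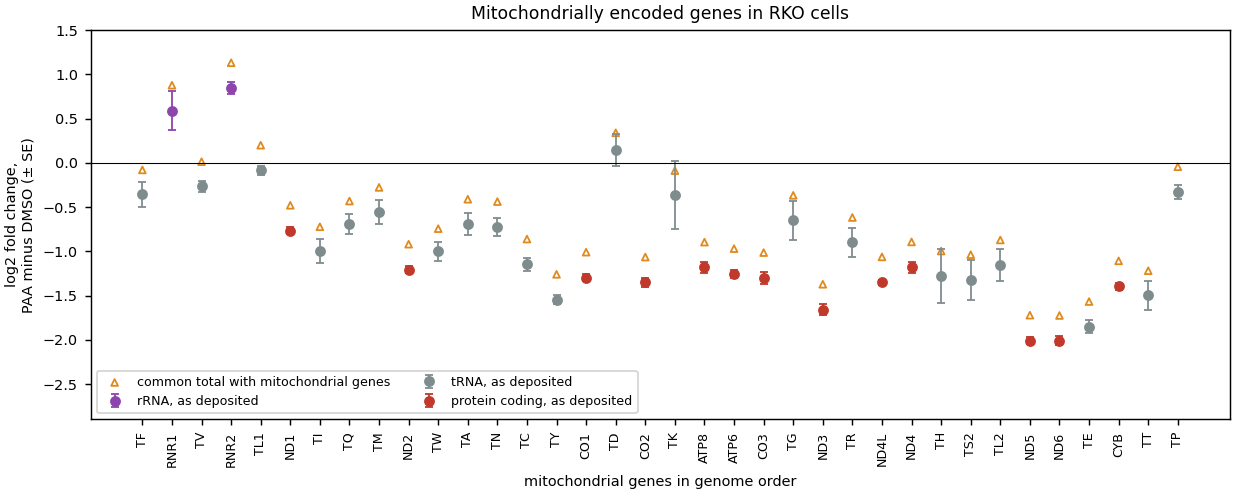
Log2 fold change (PAA minus DMSO, y axis) of the 36 mitochondrial genes tested, in genome order (x axis); filled points with SE bars are FPKM as deposited, coloured by class, and open triangles the common total with mitochondrial genes. Both rRNAs lie above 0, all 13 coding genes below 0, and MT-ND5, MT-ND6 and MT-TE lowest.

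Nuclear genes for the mitochondrial machinery had medians nearer 0, whose sign depended on the scaling. The median of all genes moved as well, from 0.0825 as deposited to 0.315 with the mitochondrial total. Under that total 52% of all genes were higher and 5.14% lower. Each list of this paragraph lay below the median of all genes under both scalings. Of 31 genes that maintain or transcribe mitochondrial DNA or process its RNA, 10 were lower and 1 higher (median -0.154; 6 lower without either DMSO library), and with the mitochondrial total 2 were lower and 8 higher (median 0.102). TFAM, which packages the genome and starts transcription, had 9.69, 9.07 and 11.1 FPKM in PAA libraries and 15.9 and 17.6 in DMSO libraries (-0.70 ± 0.097). POLRMT, the mitochondrial RNA polymerase, had 27.8, 29.2 and 28.7 with PAA and 27.6 and 26.3 with DMSO and did not pass (adjusted p = 0.207). Nuclear OXPHOS subunits were lower in 16 and higher in 3 of 47 (median -0.101; 9 lower without DMSO replicate 2 and 10 without DMSO replicate 3, 0 higher without either and 1 without PAA replicate 1). With the mitochondrial total 4 were lower and 13 higher (median 0.175). NDUFV2 of complex I fell by 0.56 ± 0.048 and ATP5MC3 by 0.51 ± 0.048. Mitochondrial ribosomal proteins were lower in 20 and higher in 9 of 77 (median -0.0964), and with that total in 3 and 26 (median 0.157). The deposited counts were 9 lower without DMSO replicate 3, 11 without DMSO replicate 2 and 13 without PAA replicate 1, and 5 higher without DMSO replicate 3 or PAA replicate 3.

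Several enzymes of glycolysis were lower. Of 27 genes of glycolysis and hypoxia, 10 were lower and 6 higher (median -0.114), and with the mitochondrial total 4 were lower and 12 higher (median 0.172). LDHA, which makes lactate, had 44.1, 41 and 45.6 FPKM in PAA libraries and 109.7 and 106 in DMSO libraries (-1.29 ± 0.058). PGAM1 fell by 0.78 ± 0.12, PGK1 by 0.66 ± 0.044 and PKM by 0.46 ± 0.041. VEGFA, which responds to both hypoxia and ATF4, rose by 0.91 ± 0.093. Among 24 cholesterol synthesis genes 8 were higher and 3 lower (median 0.11; 16 higher and 0 lower with the mitochondrial total; 4 higher and 1 lower without DMSO replicate 3), with the sterol-pathway enzyme MSMO1 at 40.9, 37.9 and 40.2 FPKM under PAA and 24.2 and 24 under DMSO (0.69 ± 0.047). Fatty acid synthesis had 2 higher and 3 lower of 11 (median -0.00876), against 5 higher and 2 lower with the mitochondrial total (median 0.255), and the 2 became 1 when any 1 library but PAA replicate 2 was left out. The acetate enzyme ACSS2 rose by 0.82 ± 0.068 and the elongase ELOVL6 fell by 0.77 ± 0.056.

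Of 34 splicing factors, 13 were lower and 2 higher (median -0.274; 1 higher without either DMSO library), and with the mitochondrial total 7 were lower and 6 higher (median -0.00265). HNRNPD, which binds AU-rich RNA, had 22.5, 19.6 and 23.9 FPKM in PAA libraries and 53.5 and 48.8 in DMSO libraries (-1.18 ± 0.096), and the SR protein SRSF7 fell by 0.62 ± 0.058. CIRBP, the cold-inducible RNA-binding protein, rose by 0.56 ± 0.056. Ribosome biogenesis genes were lower in 9 and higher in 4 of 35 (median -0.0493), with that total in 0 and 19 (median 0.228), and without DMSO replicate 2 in 3 and 2. Without DMSO replicate 3, 2 were higher. Proteasome subunits were higher in 10 and lower in 5 of 31 (median 0.0624, -0.0358 under median-of-ratios scaling; 20 higher and 1 lower with the mitochondrial total); the 5 were 3 without any 1 of the PAA libraries or DMSO replicate 2.

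Adhesion and signalling lists were mixed. Of 21 genes of epithelial-mesenchymal transition, integrins and matrix, 8 were lower and 4 higher (median -0.173), and with the mitochondrial total 4 were lower and 9 higher (median 0.0837). PLAU, urokinase, had 4.1, 4.42 and 4.2 FPKM in PAA libraries and 11.3 and 10.1 in DMSO libraries (-1.16 ± 0.065), and SNAI1 rose by 0.64 ± 0.12. Of 16 Hippo and YAP targets 6 were higher and 5 lower (median 0.0161, but -0.00244 without mitochondrial genes in the total; 8 higher and 1 lower with them), CCN1 (CYR61) falling most, with 22, 21 and 21.4 FPKM under PAA and 49.3 and 47.9 under DMSO (-1.14 ± 0.041); the 5 were 2 without either DMSO library and 3 without PAA replicate 1. Wnt targets had 3 higher and 1 lower of 8, and AXIN2 and LGR5 did not reach the filter. MAPK output genes had 3 each way of 15 (10 higher and 1 lower with the mitochondrial total; 1 higher without DMSO replicate 2 and 1 lower without DMSO replicate 3). MHC class I antigen presentation had 3 higher and 6 lower of 13 (median -0.203; 4 higher and 2 lower with the mitochondrial total, median 0.0742; 3 lower without DMSO replicate 3 and 1 higher without DMSO replicate 2), with the peptide transporter TAP1 rising by 0.47 ± 0.088 and the trimming enzyme ERAP2 falling by 0.61 ± 0.083.

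Housekeeping genes moved too. Of 15 tested, 2 were higher and 6 lower as deposited (median -0.102), and 6 higher and 3 lower with the mitochondrial total (median 0.182); the 2 became 1 without PAA replicate 1 or 2 or DMSO replicate 3. TUBA1B, an alpha-tubulin, had 195, 197 and 211 FPKM in PAA libraries and 536 and 540.2 in DMSO libraries (-1.42 ± 0.046). EEF1A1, the elongation factor, rose by 0.67 ± 0.065. ACTB fell by 0.31 ± 0.042 as deposited and was at -0.025, with no call, with the mitochondrial total.

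**Figure D4:**
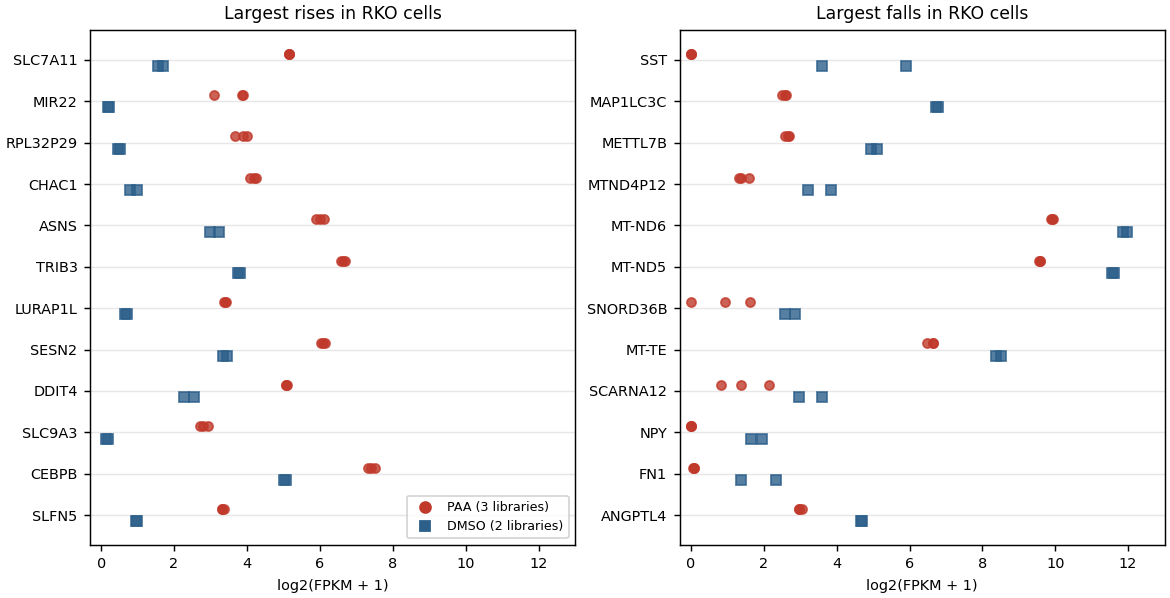
Expression as log2(FPKM + 1) (x axis) of the 12 genes with the largest rise (left) and the largest fall (right) (y axis); red circles are PAA libraries and blue squares DMSO libraries. The groups do not overlap in any of the 24 genes, which the rule required.

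The rule for the largest changes named 12 rises and 12 falls, shown in the plot of the largest changes, and some lay outside the lists. LURAP1L, an adaptor linked to NF-kB activation, had 9.38, 9.76 and 9.46 FPKM in PAA libraries and 0.646 and 0.578 in DMSO libraries (2.71 ± 0.05). SLC9A3, the apical sodium-proton exchanger of gut epithelium, had 5.52, 6.66 and 5.94 FPKM with PAA and 0.13 and 0.0927 with DMSO (2.66 ± 0.087). SLFN5, a Schlafen family gene, had 9.33, 8.95 and 9.01 FPKM with PAA and 0.956 and 0.953 with DMSO (2.37 ± 0.047). All 3 were under 1 FPKM in both DMSO libraries. MIR22, a microRNA hairpin on chromosome 17 inside its host MIR22HG, had 13.4, 13.9 and 7.5 FPKM with PAA and 0.131 and 0.152 with DMSO (3.42 ± 0.27), and the host rose by 0.95 ± 0.22, a call lost without PAA replicate 1 or either DMSO library; reads of hairpin and host overlap, and mature miRNA was not measured. RPL32P29, a processed pseudogene at 3.35 ± 0.11, can share reads with RPL32, which did not pass (adjusted p = 0.949).

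Among the falls, METTL7B, a thiol methyltransferase, had 4.96, 5.4 and 5.46 FPKM in PAA libraries and 33.3 and 29.8 in DMSO libraries (-2.38 ± 0.07). ANGPTL4, a secreted lipase inhibitor, had 6.82, 6.76 and 7.28 FPKM with PAA and 24.6 and 25 with DMSO (-1.70 ± 0.049). SNORD36B and SCARNA12, small RNAs, fell by 1.86 ± 0.48 and 1.84 ± 0.43, but both calls were lost without either DMSO library.

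The hormone gene SST (somatostatin) gave the largest fitted fall and stood apart from the rest. It was listed at 0 in all 3 PAA libraries, against 58.5 and 11.1 FPKM in DMSO libraries (adjusted p = 0.00641). NPY, a neuropeptide, was listed at 0 in PAA libraries, against 2.12 and 2.86 FPKM in DMSO libraries, and FN1, fibronectin, had 0.0393, 0.0547 and 0.0712 FPKM with PAA and 1.59 and 4.06 with DMSO. Markers of other cell types were set beside them. Leaving out ENO2, the other 8 neuroendocrine markers, SST included, summed to 0.801, 0.818 and 4.93 FPKM in PAA libraries and to 60 and 17.1 in DMSO libraries, with none of the 8 at 0 throughout. Without SST the 7 left summed to 0.801, 0.818 and 4.93 FPKM in PAA libraries and to 1.48 and 5.97 in DMSO libraries, so the groups overlapped. Leaving out ACTA2, the 12 other stromal markers summed to 0.0327, 0.00625 and 0.382 FPKM in PAA libraries and to 0.849 and 1.98 in DMSO libraries. Immune and blood markers without CD68 summed to 0.36, 0.357 and 1.01 FPKM with PAA and to 0.206 and 0.433 with DMSO, with 5 of the 13 at 0 in all libraries. TTR (transthyretin), singled out after its values were seen, had 0, 0 and 9.27 FPKM in PAA libraries and 0.0942 and 13.6 in DMSO libraries. The part of RNA from other sources in the falls of SST, NPY and FN1 was not tested.

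Transcript use was examined for 29405 transcripts of 7303 genes, each as a percentage of its gene's summed transcript FPKM. At an adjusted p of 0.05 and a change of at least 10 percentage points, limma called 17 transcripts (0.0578%) in 13 genes, while 2472 transcripts had an unadjusted p under 0.05 and 2834 (9.64%) shifted by 10 points or more without overlap. Of the 17, only 5, in 4 genes, lay in genes with a mean of at least 5 FPKM in both groups. The lack of a call for the other transcripts does not show equal use. No transcript was called when any 1 library was left out.

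ZYX, which encodes the focal adhesion protein zyxin, showed a switch in the transcripts to which its reads were assigned, without a call for the gene. Its transcript ZYX-201 made up 86.8, 92.9 and 91.8% in PAA libraries and 8.28 and 7.47% in DMSO libraries and ZYX-203 0.0528, 0.0322 and 0.0306% in PAA libraries and 76 and 77.7% in DMSO libraries. The gene had 103, 134 and 120.4 FPKM in PAA libraries and 109 and 140.0 in DMSO libraries (adjusted p = 0.782). NEAT1, the architectural RNA of paraspeckles, was assigned mostly to NEAT1-204 with PAA, which took 96.7, 96 and 96.7% in PAA libraries and 0 and 0% in DMSO libraries, while NEAT1-203 took 0.774, 1.04 and 0.684% in PAA libraries and 83.2 and 78.8% in DMSO libraries. The gene value of NEAT1 rose by 0.76 ± 0.11, with 2.11, 1.89 and 1.9 FPKM under PAA and 0.574 and 0.937 under DMSO, and the sum of its transcripts averaged 34.6 FPKM with PAA and 3.62 with DMSO; the deposited gene value is not that sum. SLFN5, among the largest rises, shifted to SLFN5-201, with 92.2, 96.8 and 90% in PAA libraries and 19.3 and 18.2% in DMSO libraries.

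In METTL16, an RNA methyltransferase that controls S-adenosylmethionine synthesis, METTL16-201 took 83.3, 91.9 and 90.9% in PAA libraries and 2.4 and 3.89% in DMSO libraries, and the gene value did not pass (adjusted p = 0.107). RINT1-201, of a gene for vesicle tethering, took 16, 13.9 and 10.8% in PAA libraries and 91.2 and 90.4% in DMSO libraries, and PPP1R8-202, of a nuclear phosphatase inhibitor gene, 97.2, 95.5 and 96.6% in PAA libraries and 63.8 and 62.7% in DMSO libraries. The groups did not overlap in any of the 17. The remaining called transcripts belonged to HIPK1, PIK3R3, ASH1L-AS1, LINC01560, JMJD4, CTBP1-DT and TIGD2. ASH1L-AS1, with gene means of 0.868 FPKM under PAA and 1.16 under DMSO, passed wholly from a transcript of 911 bases to 1 of 909 bases. LINC01560 passed almost wholly from a transcript of 1253 bases to 1 of 1238 bases. The authors assigned the reads among overlapping transcripts with a tool that is not given. The part of that assignment in these shifts was not tested.

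**Figure D5:**
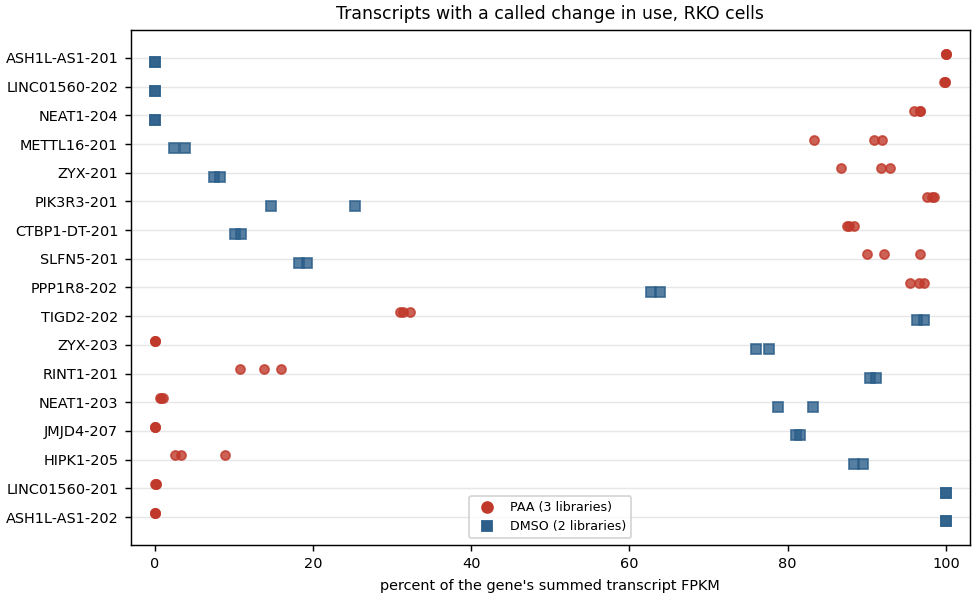
Percentage of the gene's summed transcript FPKM (x axis) held by each of the 17 called transcripts (y axis); red circles are PAA libraries and blue squares DMSO libraries. In ZYX, NEAT1, ASH1L-AS1 and LINC01560 the gain of 1 transcript is matched by the loss of another, and PPP1R8-202 shows the smallest change.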

How the data were processed

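Libraries were made from Trizol-extracted total RNA of RKO cells with an Illumina preparation, per the labels, and the authors deposited FPKM values per gene and per transcript, with 0.0001 standing for 0 per the values. Per the submitters' processing notes, reads were trimmed with cutadapt 1.9 and checked with FastQC, and GRCh38 was the build. The quantification tool, annotation release, RNA selection and PAA dose were not given in the sources used here. FPKM are not counts, and whole fragments could not be recovered from them, so no count model was used.

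Values were set to log2(FPKM + 1) for genes of at least 1 FPKM in at least 2 of 5 libraries and fitted with limma 3.58.1 in R 4.3.3 (moderated test with a mean-variance trend, 3 residual and 1.85 prior degrees of freedom, two-sided, Benjamini-Hochberg adjustment over all genes tested, adjusted p under 0.05). Fold changes on this scale understate changes of low genes. Errors of log2 fold changes are SE, and SD elsewhere, with n = 3 PAA and n = 2 DMSO libraries. Transcript use was fitted likewise. Both tests were tried on simulated data. The gene test called 159 of 200 changed genes and 7 unchanged genes. Only these 200 of 12248 genes were changed, by set sizes. All 200 had a mean above 2 on the log2(FPKM + 1) scale. In the data 41.2% of genes were called, so the 159 do not give the power of the test there. The transcript test called 2 of 100 shifts of 20 percentage points and 56 of 100 shifts of 60 points, so it misses most smaller shifts. Genes were placed with GENCODE 29. Fewer cells of a type and less RNA per cell cannot be told apart in bulk RNA.

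The members and gene lists were chosen with earlier results of these data known. Genes were named by rule: the 12 largest rises and falls without overlap and with a mean of at least 2 FPKM in the higher group, up to 3 called members per list and direction, and all mitochondrial coding and rRNA genes. Members without a call were named by their known role, and a few genes are not reported here. A further 42 called genes, such as ATF4, DDIT3, PCNA and TXNRD1, were named for their role after their values were seen. Replicates were not paired in the main fit, since the labels give only a replicate number. Same-numbered libraries did not deviate together, but with 2 DMSO libraries this cannot exclude a shared batch. Alternatives covered scaling, pseudocount, filters, the replicate block and leaving out each library.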

Additional observations from a re-analysis of the deposited data

How the results depend on the processing

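The number of genes called, 5046 as deposited, was 3338 when a mean of at least 5 FPKM was required, 3138 to 4136 when 1 library was left out and 1772 with a replicate block. Genes called higher, 3250 as deposited, were 6373 with the mitochondrial total, 1993 with the mean filter, 2015 to 2634 without 1 library and 1158 with the block. Genes called lower, 1796 as deposited, were 629 with the mitochondrial total, 1039 to 1502 without 1 library and 614 with the block. Without the expression filter 4157 of 29122 genes were called. Higher and lower calls numbered 2423 and 2503 with median-of-ratios factors and 2398 and 2322 after quantile normalisation. Deviations of same-numbered libraries correlated at -0.163 and -0.0895. With 2 DMSO libraries, whose deviations mirror each other, these values cannot show whether same-numbered libraries share a batch. Transcripts called, 17 in the fit described, were 61 with a minimum of 5 FPKM, 115 on the arcsine square root scale, 0 with the block and 0 to 0 without 1 library. The fall in the mitochondrial share ran from -16.54 to -15.43 percentage points without 1 library. Of 4403 refitted log2 fold changes of 278 genes, 3921 kept direction and side of the threshold, 460 lost the call, 3 gained it and 19 changed sign, and 154 genes kept both throughout. With the mitochondrial total the sign changed for KLF10 (0.009606), FDPS (0.09465), KRT18 (0.009736), ACLY (0.1061), EPHA2 (0.01854), PRDX1 (0.09588), CBR1 (0.1236), AMD1 (0.0916), ODC1 (0.155), SHMT1 (0.01381) and ALDH18A1 (0.08034), all below that scaling's median of 0.315. With the sum of transcripts in place of the gene value it changed for ALDH5A1 (0.1182), STAT2 (-0.04539), ATP5F1A (0.2958), PSMD12 (0.2842), HNRNPA1 (-0.1848) and EIF2AK3 (-0.5962), and after quantile normalisation for MT2A (0.1762) and MT-ND1 (0.02977). The cause was not tested.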

Other observations

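Noncoding RNA classes were not called in equal shares. Of 775 long noncoding RNAs, 178 (23%) were higher and 58 (7.48%) lower with PAA (median 0.14). Of 883 pseudogenes, 217 (24.6%) were higher and 73 (8.27%) lower (median 0.17). Of 10280 protein-coding genes, 2829 (27.5%) were higher and 1602 (15.6%) lower (median 0.0791). With the mitochondrial total these medians were 0.314, 0.374 and 0.315. Of 79 miRNA hairpins, 7 (8.86%) were higher and 13 (16.5%) lower. Over all genes tested, 26.5% were higher and 14.7% lower. Long noncoding RNAs and pseudogenes thus lay near that background for rises and below it for falls. The classes were not matched for expression level. Pseudogene values can hold reads of their parent genes.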
